A study of Mus musculus with 4 samples.

Results

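Haematopoietic stem cells read their surroundings through cytokine and growth factor receptors, and 52 genes of that machinery were followed here: 42 receptor chains, 4 JAK kinases and 6 STAT factors, in 11 classes. They were chosen by name, with earlier results of these data known. Of the 52, 50 could be measured, out of 18193 genes on the array. Il11ra1 and Il2rg had no probe set annotated to them alone and were not analysed here. A probe set is a group of short probes that report 1 transcript. The 50 members had 119 probe sets with exactly 1 gene symbol, and the brightest on average over the 4 arrays stood for its gene.

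The cells were KLS CD48- CD150+ mouse HSC, isolated by flow cytometry 2 weeks after tamoxifen had started recombination in adult animals. The Rb family deficient genotype is Rb -/- p130 -/- p107-/-. Its control, called wild type, is Rb +/+ p130 +/+ p107-/-. Loss of p107 was therefore common to both groups, and the controls are not wild type at that gene. Each group had 2 arrays, each array was made from a pool of 3 mice, and the sources used here give no Cre driver, exact age or sex. All values are log2 expression after RMA, differences are deficient minus wild type, each SE is limma's moderated standard error, and n was 2 pools per group throughout.

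Cytokine receptors have no kinase of their own. Ligand binding brings receptor chains together, the JAK kinases bound to their tails phosphorylate them, and STAT factors dock there, are phosphorylated and move to the nucleus. SOCS proteins, induced by STATs, then shut the receptor down. Receptor tyrosine kinases carry the kinase in the same protein, and TGF-beta and BMP receptors are serine/threonine kinases that act through Smads. In HSC these inputs are known for setting the balance between quiescence, survival and lineage output.

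By limma 0 of the 50 members passed an adjusted p of 0.05 over all genes, as did 0 of 18193 genes, a background of 0%. At an unadjusted p under 0.05 there were 2 members with higher values in the deficient pools, the cytokine receptor beta chains Csf2rb and Csf2rb2, and 3 with lower values, Il27ra, Il21r and Acvr1. These 5 members were 10% of the 50, beside 6.23% of all genes, with 399 genes higher and 735 lower. With median centring of the arrays the genes split into 298 higher and 1009 lower. Without single pools the differences of the 5 members moved in size. They ran from 0.81 to 1.17 (Csf2rb), 0.67 to 1.45 (Csf2rb2), -0.90 to -0.49 (Il27ra), -0.52 to -0.43 (Il21r) and -0.94 to -0.57 (Acvr1). As a set the members did not lean either way. There were 25 above 0 and 25 below, with a median difference of -0.0017 beside -0.0038 over all genes. The pools of the groups did not overlap for 23 members, 9 of them higher and 14 lower in the deficient pools, or 46.0% beside 35.5% of all genes (17% higher and 18.5% lower). Differences of at least 0.5 were seen for 3 members above 0 (Csf2rb2, Csf2rb and Il1r1) and 3 below (Acvr1, Il27ra and Jak3), beside 2.73% and 4.74% of all genes.

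**Figure D1:**
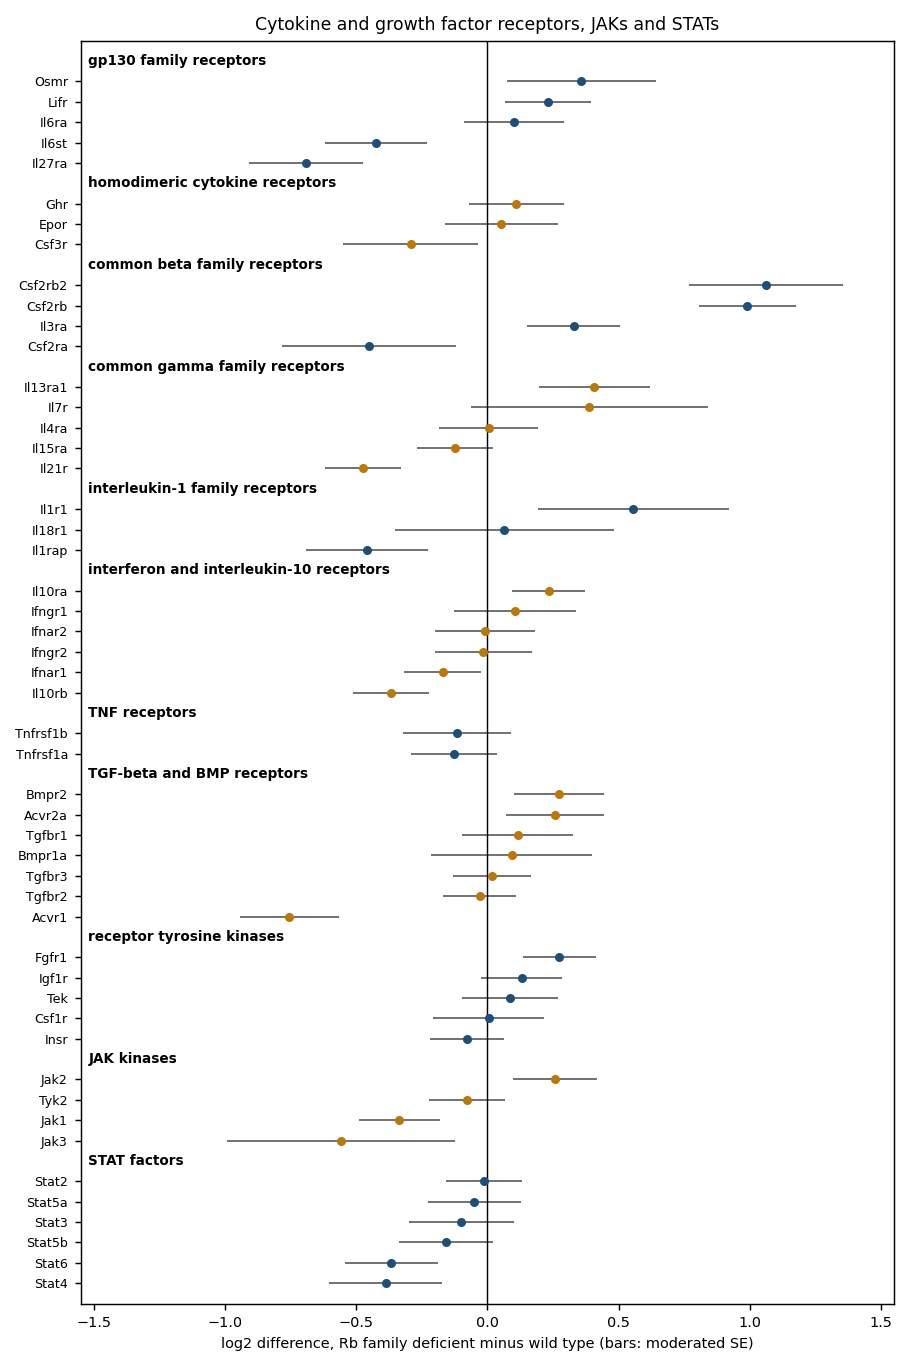
Log2 difference, deficient minus wild type, for the 50 measured members grouped by receptor class, each point 1 gene and each bar its moderated SE. Csf2rb2 at 1.06 and Csf2rb at 0.99 lie farthest to the right and Acvr1 at -0.75 farthest to the left, while the 6 STAT factors all lie at or below -0.01.

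The libraries had like overall distributions and differed in some markers. Array medians ran from 5.94 to 6.02. Over genes the deficient pools correlated at r = 0.9899 and the wild type pools at 0.9875. Pools of different groups correlated at 0.9828 to 0.9903, and the closest pair was deficient pool 2 with wild type pool 2. The Actb control signal near the 3' end exceeded that near the 5' end, a measure of RNA degradation, by 3.13 and 2.95 in deficient pools 1 and 2, against 2.32 and 2.81. The same measure for Gapdh was 2.79 and 2.50 against 2.40 and 2.58, with overlapping groups. Y-linked Kdm5d stood at 6.12 and 7.86 against 8.26 and 8.37. The part of these in the members' values was not tested. Of 10 measured stem cell markers 7 were below 0, and their summed linear signal was 11820 and 14557 in the deficient against 19068 and 17238 in the wild type cells. The gate's positive marker Slamf1 (CD150) stood at 9.26 and 9.90 against 8.81 and 9.86, and Kit at 9.94 and 10.45 against 11.09 and 10.47. Cd48, which the gate selects against, was at 6.29 and 6.57 against 5.84 and 7.09. In a bulk sample, fewer cells of a type and less RNA per cell cannot be told apart.

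The common beta family held the largest positive differences among the members. Csf2rb encodes the beta chain shared by the receptors for interleukin-3, interleukin-5 and GM-CSF. It stood at 9.88 and 10.24 in the deficient pools, and the wild type pools had 8.999 and 9.15. Both deficient pools were above both wild type pools, by 1.99-fold on average (log2 difference 0.99, SE 0.18, limma adjusted p = 0.761). A second, dimmer Csf2rb probe set stood at 6.58 and 7.06 against 6.55 and 6.56, and with the mean of both Csf2rb differed by 0.63.

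Csf2rb2 encodes the mouse's additional beta chain, which serves interleukin-3 alone. Its values were 8.31 and 9.10 in the deficient pools against 7.79 and 7.496, again with no overlap. The difference was 2.09-fold (log2 1.06, SE 0.29, limma adjusted p = 0.761), and it was 0.67 without deficient pool 2, the pool with the highest value. The beta chain genes are close paralogs, so a probe set named for one can hybridise to transcripts of the other and their values are not fully separate.

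The alpha chains, which give these receptors their ligand specificity, had smaller or opposite differences. Il3ra, the interleukin-3 receptor alpha chain, had 6.40 and 6.74 against 6.29 and 6.20, so the deficient pools lay just above (0.33, SE 0.18), by 0.16 without deficient pool 2. Csf2ra, the GM-CSF receptor alpha chain, was at 6.93 in deficient pool 1, while the other pools lay between 7.79 and 7.94. Its difference of -0.45 (SE 0.33) thus came from 1 pool and was 0.03 without it, and a second Csf2ra probe set gave 0.24. Over the 4 members the median was 0.66, with 3 of 4 above 0, and without single pools it ran from 0.41 to 0.84.

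Myeloid cells are known to express the beta chains, and most of their markers had a higher mean in the deficient group. The summed signals of neutrophil and of progenitor markers overlapped between the groups. Their part in the result was not tested. Of 10 measured mature neutrophil markers 10 were above 0, with a median of 0.90. At an unadjusted limma p under 0.05, 4 were higher, beside 2.19% of all genes. Without wild type pool 1, 9 of 10 were above 0 and the median was 0.40. Their summed linear signal was 67513 and 42692 against 19840 and 43053. RMA values have no 0. Of the 10 markers 9 were at or above the median level of all genes. The chemokine receptor gene Cxcr2 alone was under it, at 5.51 and 5.31 against 5.09 and 5.17. Markers of granulocyte and monocyte progenitors summed to 7867 and 20880 against 4676 and 17530, with 6 of 7 above 0 (1 of 7 without wild type pool 1), and those of mast cells and basophils to 1018 and 1501 against 775 and 1052, with 5 of 7 above 0. Other marker lists had medians between 0.02 and 0.29: 8 of 10 monocyte and macrophage genes, 5 of 8 erythroid, 5 of 9 megakaryocyte, 7 of 7 B cell, 6 of 7 T and NK cell, and 4 of 7 multipotent and lymphoid progenitor genes were above 0. Without wild type pool 1 these counts were 6 of 10, 1 of 8 (erythroid median -0.61), 5 of 9, 3 of 7, 3 of 7 and 3 of 7. Many of these markers were dim. At or above the median level of all genes were 1 monocyte and macrophage, 2 B cell and 1 T and NK cell gene. The same held for 1 mast cell and basophil gene, 5 erythroid, 7 megakaryocyte, 4 multipotent and lymphoid, and 6 granulocyte and monocyte progenitor genes.

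**Figure D2:**
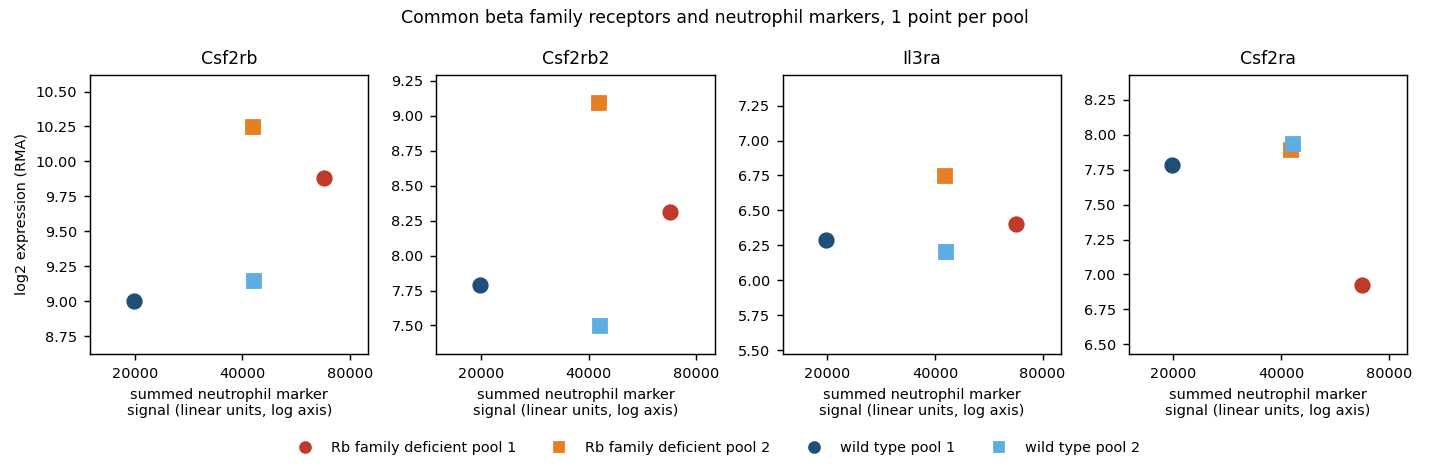
Log2 expression of the 4 common beta family members (vertical axes, each spanning 2 log2 units) against the summed linear signal of 10 neutrophil markers (horizontal log axis), 1 point per pool. The neutrophil signal is highest in deficient pool 1 at 67513 and lowest in wild type pool 1 at 19840, and Csf2rb is highest in deficient pool 2 at 10.24.

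Promoter sequences are shown for the members at an unadjusted p under 0.05 that have an entry in the RefSeq table used (GRCm38.p6), so that the letters upstream of these genes can be seen beside their values. Csf2rb and Il27ra had none. Each line gives the 250 bases before the annotated start, 5′ to 3′ on the gene's strand. Capitals mark a match to TTCNNNGAA, the spaced inverted repeat that STAT dimers bind, which reads the same on both strands. The Csf2rb2 window is chr15:78305722-78305971 (minus strand), the Acvr1 window chr2:58566829-58567078 (minus strand) and the Il21r window chr7:125603179-125603428 (plus strand).
Csf2rb2: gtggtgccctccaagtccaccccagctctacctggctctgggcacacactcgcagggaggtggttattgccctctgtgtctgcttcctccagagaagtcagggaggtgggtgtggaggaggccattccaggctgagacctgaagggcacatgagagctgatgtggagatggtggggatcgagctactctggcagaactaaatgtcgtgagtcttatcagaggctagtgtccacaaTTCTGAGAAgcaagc
Acvr1: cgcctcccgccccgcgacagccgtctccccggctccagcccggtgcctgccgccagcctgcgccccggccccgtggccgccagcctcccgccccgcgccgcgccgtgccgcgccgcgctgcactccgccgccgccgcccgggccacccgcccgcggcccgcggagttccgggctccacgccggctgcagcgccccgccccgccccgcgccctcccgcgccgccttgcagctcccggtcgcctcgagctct
Il21r: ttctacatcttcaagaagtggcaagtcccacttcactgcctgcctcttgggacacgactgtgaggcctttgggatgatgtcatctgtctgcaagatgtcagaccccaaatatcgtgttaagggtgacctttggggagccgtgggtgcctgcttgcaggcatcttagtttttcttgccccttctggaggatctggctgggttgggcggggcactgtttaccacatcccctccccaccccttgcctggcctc

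The Csf2rb2 window holds 1 STAT-type match, beginning 15 bases upstream of the start, and the Acvr1 and Il21r windows hold none. Acvr1 has a GC-rich promoter, 85.6% G or C with 46 CG pairs, while those of Csf2rb2 (56.4%, 3 pairs) and Il21r (55.6%, 4 pairs) are poor in CG. Windows were available for 44 of the 52 genes, and 6 had a STAT-type match: Csf2rb2, Ifnar2, Il18r1, Il7r, Tnfrsf1a and Tnfrsf1b. Per window this was 6 of 55, or 10.9%, beside 7.02% of all 32851 windows. The E2F-type words TTTCGCGC and TTTGGCGC, searched on both strands, were in 0 of the 55 windows and in 0.654% of all. The other 5 genes with a STAT-type match differed by 0.39 (Il7r), 0.07 (Il18r1), -0.0087 (Ifnar2), -0.12 (Tnfrsf1b) and -0.13 (Tnfrsf1a). A match describes letters only and shows no binding.

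Receptors that signal through gp130, the chain shared by interleukin-6, LIF, oncostatin M and interleukin-27, differed in sign. Il27ra, which pairs with gp130 to bind interleukin-27, was at 8.32 and 8.68 in deficient cells, while wild type cells had 9.40 and 8.99. The groups did not overlap, and the difference was 1.61-fold (log2 -0.69, SE 0.22, limma adjusted p = 0.761). Il6st, which encodes gp130 itself, stood at 7.52 and 7.84 against 8.26 and 7.95, also without overlap (difference -0.42, SE 0.20), or -0.27 without deficient pool 1 or without wild type pool 1. Its 3 dimmer probe sets gave -0.07, -0.15 and 0.06. The interleukin-6 binding chain Il6ra was at 7.70 and 7.28 against 7.39 and 7.39, and the gap between the deficient pools exceeded the difference of 0.10 (SE 0.19).

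Lifr and Osmr, the partner chains of gp130 for LIF and oncostatin M, were dim, under the median level of all genes. Lifr was at 5.50 and 5.22 against 5.12 and 5.13, while Osmr had 4.76 in deficient pool 1 and values from 3.96 to 4.06 elsewhere. Among the ligands of this class Il6 was at 5.49 and 6.19 against 4.77 and 4.25, 2.51-fold (log2 1.33, SE 0.30, limma adjusted p = 0.761), from a single probe set that is dim as well. The feedback inhibitor Socs3, which acts on gp130, stood at 10.91 and 11.14 against 8.56 and 8.71, and its only probe set without an _x_at name differed by 0.83. Its difference was 2.39 (SE 0.16, limma adjusted p = 0.326), the lowest p of the negative regulators.

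The homodimeric receptors, in which 2 copies of 1 chain form the receptor, differed within the spread between pools by the probe sets that stand for them. Csf3r, the G-CSF receptor of the neutrophil lineage, was at 8.85 and 8.79 against 9.46 and 8.76. Wild type pool 1 alone stood apart, and the difference of -0.29 (SE 0.26) was 0.05 without it. The erythropoietin receptor Epor differed by 0.05 (SE 0.21) and the growth hormone receptor Ghr by 0.11 (SE 0.18), with overlapping pools for both. A dimmer Ghr probe set was at 6.91 and 7.09 against 6.50 and 6.58, without overlap (0.46, SE 0.15), and the dimmest gave -0.32.

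Among receptors of the common gamma family, most of which serve lymphoid cytokines through Jak1 and Jak3, Il21r had the lowest p. The interleukin-21 receptor chain stood at 7.002 and 7.10 against 7.48 and 7.57. The pools within each group lay close together, and the groups differed by 1.39-fold (log2 -0.47, SE 0.14, limma adjusted p = 0.761). It was measured by 1 probe set. Il15ra, which presents interleukin-15, was lower by a smaller amount with no overlap (-0.12, SE 0.14). Il13ra1, the partner of Il4ra in the type II interleukin-4 receptor, differed by 0.41 (SE 0.21) at a dim 4.02 to 4.79 and by 0.16 with specific probe sets first, and Il4ra by 0.0053 (SE 0.19). The interleukin-7 receptor chain Il7r, a lymphoid progenitor gene, was at 5.63 and 4.79 against 4.27 and 5.38, so its difference of 0.39 (SE 0.45) was smaller than the gap between pools of either group.

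Interleukin-1 family receptors, which signal through MyD88 rather than JAKs, showed wide gaps between the wild type pools. Il1r1, the signalling receptor for interleukin-1, was at 8.61 and 9.14 against 8.80 and 7.84. Its difference of 0.56 (SE 0.37) was 0.08 without wild type pool 2 and 1.04 without wild type pool 1. The accessory chain Il1rap had 7.01 and 6.99 against 7.76 and 7.16 (-0.46, SE 0.23), or -0.16 without wild type pool 1. Il18r1, the interleukin-18 receptor, was at 6.78 and 7.15 against 7.51 and 6.29 and differed by 0.07 (SE 0.42). The decoy receptor Il1r2, not a member, stood clear of this spread at 7.79 and 7.55 against 6.21 and 6.38, 2.60-fold (log2 1.38, SE 0.17, limma adjusted p = 0.761), measured by 1 probe set. Neutrophils are a known source of Il1r2, and their part in this value was not tested.

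Interferon receptors showed small differences. The type I chains Ifnar1 and Ifnar2 differed by -0.17 (SE 0.15) and -0.0087 (SE 0.19), and the type II chains Ifngr1 and Ifngr2 by 0.11 (SE 0.23) and -0.01 (SE 0.19). Of these 4 only Ifnar1 had groups that did not overlap, at 7.89 and 7.81 against 7.95 and 8.08. Il10rb, the chain shared by receptors for interleukin-10, interleukin-22 and type III interferons, was at 8.19 and 8.33 against 8.64 and 8.61 (difference -0.37, SE 0.15). A dimmer Il10rb probe set gave 0.39, and the mean of both gave 0.01. The ligand binding chain Il10ra went the other way at 6.12 and 6.09 against 5.84 and 5.90 (0.23, SE 0.14), and its 2 other probe sets gave 0.50 and 0.09.

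Both TNF receptors were within the spread between pools. Tnfrsf1a, the broadly expressed death domain receptor, stood at 9.85 and 10.04 against 10.18 and 9.97 (difference -0.13, SE 0.16). Tnfrsf1b, the receptor of haematopoietic and endothelial cells, was at 8.58 and 9.07 against 8.95 and 8.93 (-0.12, SE 0.20).

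In the TGF-beta and BMP class, known for holding HSC in quiescence, Acvr1 had the largest difference. The groups did not overlap for 3 of the 7 genes (Acvr1 and Tgfbr2 lower, Bmpr2 higher), beside 35.5% of all genes. Acvr1, a type I BMP receptor also called ALK2, was at 7.005 and 7.38 against 7.85 and 8.04. The groups did not overlap and differed by 1.69-fold (log2 -0.75, SE 0.19, limma adjusted p = 0.761), the largest negative difference of the 50 members. Both dimmer Acvr1 probe sets gave 0.07 and 0.01, and the mean of all 3 gave -0.22, so the brightest one alone carries the value.

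The TGF-beta receptors themselves differed little. Tgfbr2, the ligand binding kinase, stood at 10.19 and 10.21 against 10.21 and 10.23, and the co-receptor Tgfbr3 at 10.70 and 10.76 against 10.64 and 10.79. Their differences were -0.03 (SE 0.14) and 0.02 (SE 0.15). The type I receptor Tgfbr1 differed by 0.12 (SE 0.21) and the BMP type I receptor Bmpr1a by 0.09 (SE 0.31). Bmpr2, the BMP type II receptor, was at 10.72 and 10.75 against 10.62 and 10.30 (0.27, SE 0.17), or 0.11 without wild type pool 2 and 0.44 without wild type pool 1. Dimmer Bmpr2 probe sets gave 0.52 and -0.14. The activin type II receptor Acvr2a differed by 0.26 (SE 0.19) with overlapping pools.

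Of the downstream genes Smad1, a BMP Smad, was at 10.93 and 11.19 against 10.64 and 10.59 (0.44, SE 0.16). The shared Smad4 was at 11.25 and 11.12 against 10.78 and 10.81 (0.39, SE 0.15). Their second brightest probe sets, without an _s_at or _a_at name, gave -0.02 and -0.05, while their dimmest probe sets gave 0.71 (Smad1) and 0.11 (Smad4). Skil, a co-repressor of Smads, stood at 10.72 and 11.01 against 9.56 and 9.56 (1.30, SE 0.17), or 0.84 with the mean of its probe sets.

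The 5 receptor tyrosine kinases among the members differed little. Outside the members, Kit differed by -0.59 (SE 0.28) without overlap, and Pdgfra by 0.73 (SE 0.37) with overlapping pools. Fgfr1, a fibroblast growth factor receptor, was at 6.66 and 6.68 against 6.39 and 6.40, with groups apart and pools nearly equal within each (0.27, SE 0.14). Its value was 0.16 with specific probe sets first. Tek, the TIE2 receptor that holds HSC in the niche through angiopoietin-1, was at 8.22 and 8.32 against 8.37 and 7.995 (0.09, SE 0.18). Igf1r differed by 0.13 (SE 0.15), the insulin receptor Insr by -0.08 (SE 0.14) and the macrophage receptor Csf1r by 0.0057 (SE 0.21).

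The ligand of Tek and a related receptor differed by more, both lower in the deficient pools. The ligand Angpt1 stood at 11.43 and 12.05 against 12.58 and 12.34, 1.65-fold (log2 -0.72, SE 0.25), and was -0.41 without deficient pool 1. A second, dimmer Angpt1 probe set gave 0.12. Tie1, the related orphan receptor, was at 5.22 and 5.88 against 7.85 and 6.34 (-1.54, SE 0.53), or -0.79 without wild type pool 1, whose value stood well above the rest. Pdgfrb, a receptor of stromal cells, was at 9.59 and 9.66 against 8.87 and 8.32, 2.04-fold (log2 1.03, SE 0.22), while its dimmer specific probe set gave 0.32. Endothelial and stromal markers, Pdgfrb among them, were above 0 for 8 of 9, or 7 of 9 without wild type pool 1. Their summed signals were 1515 and 1244 against 857 and 831. Pdgfrb was the only 1 of the 9 at or above the median level of all genes. Much of these sums is thus Pdgfrb itself, and they are not separate from its value. The part of endothelial and stromal cells in these values was not tested.

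**Figure D3:**
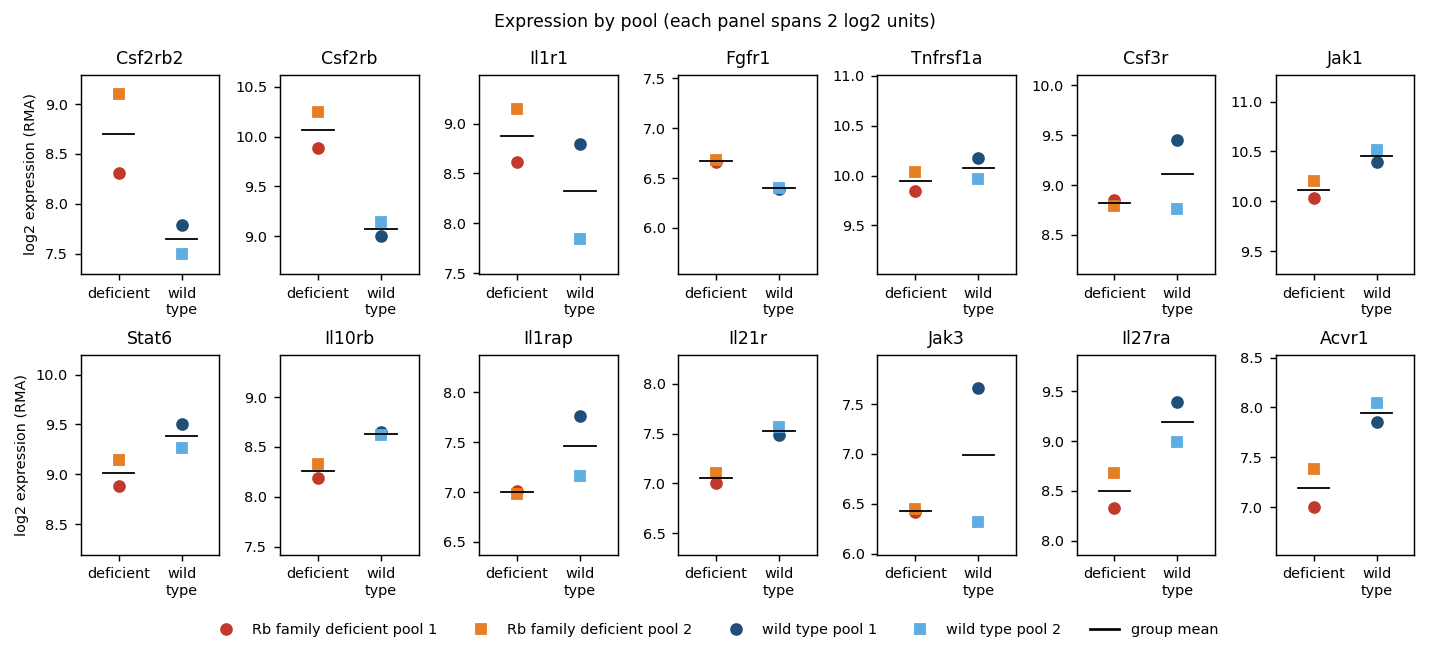
Log2 expression in each of the 4 pools for the 14 members at an unadjusted p under 0.05, with a difference of at least 0.5 in size, or with the lowest p of their class. Each panel spans 2 log2 units, and points are pools and bars group means. In Csf2rb, Csf2rb2, Il21r, Il27ra and Acvr1 the groups are apart, while Jak3, Csf3r and Il1r1 are set by single wild type pools.

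The JAK kinases and STAT factors were mostly below 0, by small amounts. Of the 10 genes 9 were below 0, where 49.2% of all genes were above, and the median was -0.13. Without wild type pool 1 the count was 6 of 10 and the median -0.01, and averaging each gene's probe sets gave 6 of 10 and -0.09. By limma 0 of the 10 were at an unadjusted p under 0.05. Jak1, the kinase used by gp130, interferon and common gamma receptors, had the lowest p of its class. It was at 10.03 and 10.20 against 10.39 and 10.51, without overlap (-0.34, SE 0.15), and dimmer Jak1 probe sets gave -0.48 and 0.04.

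Jak2, the kinase that works with the beta chains and with the erythropoietin receptor, was the exception in sign. It stood at 10.998 and 11.08 against 10.665 and 10.90 (0.26, SE 0.16), or 0.14 without wild type pool 1, and its dimmer probe set gave -0.19. Jak3, the lymphoid kinase, was at 6.42, 6.45 and 6.32 in 3 pools and at 7.66 in wild type pool 1. Its difference of -0.56 (SE 0.44) was 0.11 without that pool. Tyk2 differed by -0.08 (SE 0.14).

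Stat6, the factor of interleukin-4 signalling, was at 8.89 and 9.14 against 9.50 and 9.26 (-0.37, SE 0.18), its second probe set gave -0.39, and without deficient pool 1 the difference was -0.24. Stat4, which answers interleukin-12, was at 8.66 and 8.57 against 8.74 and 9.27 (-0.39, SE 0.22), or -0.12 without wild type pool 2 and -0.65 without wild type pool 1. Neither had overlapping groups. Stat3, the main factor of gp130, was at 9.32 and 9.52 against 9.74 and 9.31 (-0.10, SE 0.20). Its probe sets disagreed, with 2 others at -0.35 and -0.03 and 1 at 8.16 and 8.20 against 7.62 and 7.32 (0.70, SE 0.16). The factors that follow the beta chains, Stat5a and Stat5b, differed by -0.05 (SE 0.18) and -0.16 (SE 0.18), and the interferon factor Stat2 by -0.01 (SE 0.14).

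**Figure D4:**
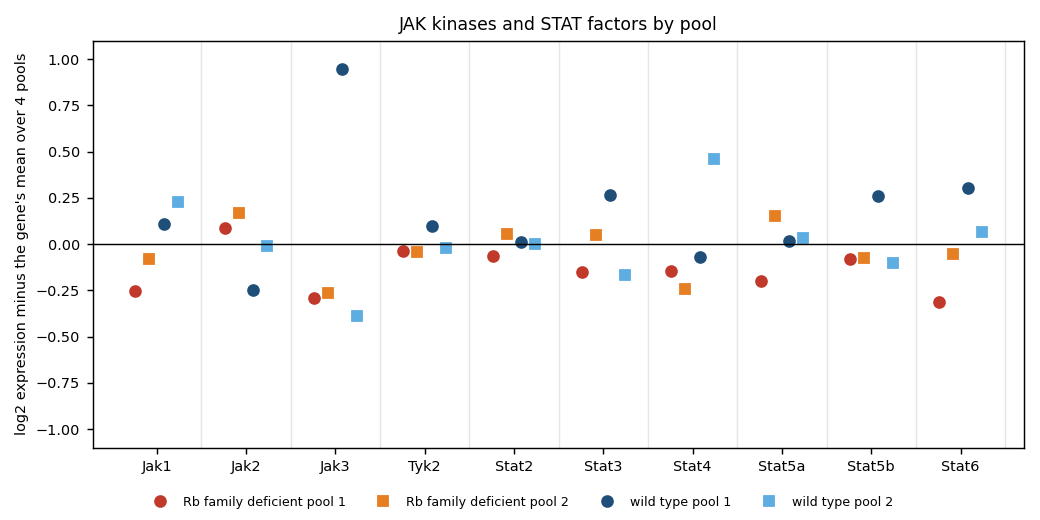
Log2 expression of 4 JAK and 6 STAT genes in each pool, minus the gene's mean over the 4 pools. Wild type pool 1 (dark blue circles) carries Jak3 at 7.66 against 6.32 to 6.45 elsewhere, and the 2 wild type pools lie above both deficient pools for Jak1, Tyk2, Stat4 and Stat6.

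Other genes of the pathways were counted from lists, of which Socs3, Skil, Il1r2, Ccnd1 and several more were known from earlier results of these data. By limma 0 genes of any of the 5 lists passed the adjusted threshold. An unadjusted p under 0.05 was reached by 3 of 32 other receptors (2 higher, 1 lower) and by 2 of 34 ligands (1 and 1), beside 2.19% of all genes higher and 4.04% lower. Among the ligands Il18 followed Il6 and Angpt1 by p, at 9.29 and 9.03 against 9.42 and 9.70 (-0.40, SE 0.18), or -0.26 without wild type pool 2. Of 27 negative regulators 2 were higher (Socs3 and Skil) and 2 lower (Socs5 at -0.39 and the Smad ubiquitin ligase Smurf1 at -0.62). Smurf1 was at 6.11 and 6.68 against 7.05 and 6.98, its difference was -0.33 without deficient pool 1, and its dimmer probe set gave 0.03. The median of that list was -0.15.

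STAT response genes, which cytokines switch on through STATs in many cells, went both ways. Of 21 measured, 3 were higher and 4 lower at that level, beside 2.19% and 4.04% of all genes. The median was 0.09. Cyclin D1 (Ccnd1) stood at 7.01 and 7.59 against 9.38 and 8.62, 3.25-fold (log2 -1.70, SE 0.33), or -1.07 with the mean of its probe sets. The early response genes Fos, at 13.30 and 13.58 against 12.09 and 12.59, and Egr1, at 12.68 and 12.60 against 10.33 and 11.64, lay on the opposite side (1.103, SE 0.23, and 1.66, SE 0.43), and Egr1 was 1.00 without wild type pool 1. Of 19 adaptors and Smads 3 were higher and 1 lower, among them the insulin receptor substrate Irs1, dim at 5.51 and 5.53 against 4.90 and 5.12 (0.51, SE 0.15).

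How far a value can be carried from 1 probe set to the gene was checked over the 38 members with more than 1. For 7 of them every probe set was above 0, for 5 every one was below, and for 26 the signs were mixed. Of the 5 members at an unadjusted p under 0.05, Il21r, Il27ra and Csf2rb2 had 1 probe set each, Csf2rb had 2 of the same sign, and Acvr1 had 3 of mixed sign. A dim Lifr probe set, at 4.85 and 4.004 against 3.86 and 3.18, gave 0.91, and the one that stands for the gene 0.23.

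**Figure D5:**
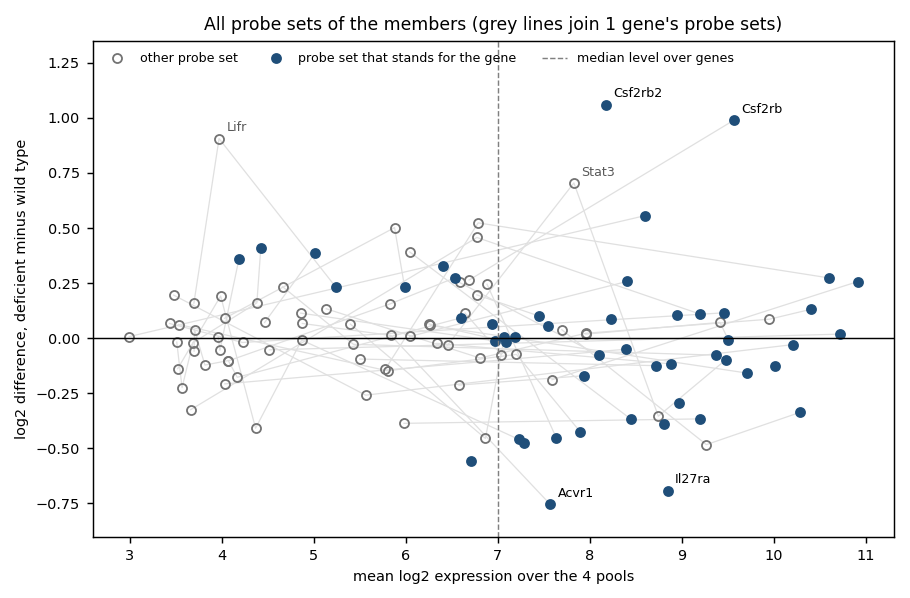
Log2 difference against mean log2 expression over the 4 pools for all 119 probe sets of the 50 members, with filled points for the probe set that stands for its gene and grey lines joining probe sets of 1 gene. Csf2rb and Csf2rb2 stand near 1 on the right, and the open points of Lifr (0.91) and Stat3 (0.70) lie far from the filled points of their genes.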

How the data were processed

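Each array measured total RNA of 1 pool of sorted HSC, 4 arrays in all. The authors deposited 1 log2 expression value per probe set and array. Per the submitters' processing notes the tools were RMA and limma, with no version or setting given, and the range of the values shows the log2 scale. Because RMA gives all arrays nearly 1 distribution, changes in RNA content per cell are hidden, and folds of dim probe sets come out too small. No detection calls were used, so no gene is called absent.

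Of 45101 probe sets, 34945 had exactly 1 gene symbol in the platform annotation, 932 had several and the rest none, and 64 were array controls. Symbols of other genes were updated by Entrez ID with a RefSeq table (34741 of 34945 matched), while member symbols needed no change. The fit used limma 3.58.1 (lmFit and eBayes) in R 4.3.3 over 18193 genes, without a block or a filter, with Benjamini-Hochberg adjustment and a threshold of 0.05. It was tested on simulated data. An exact permutation test of 2 against 2 pools cannot go below 0.333 and was not used. Other probe sets of a gene were fitted with all probe sets together. Nothing states that pools shared no mouse, so p-values measure the spread between these pools, and the number of arrays limits the precision.

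The members and the lists were chosen with earlier results of these data known. Named with a value in every pool were members at an unadjusted p under 0.05, with a difference of at least 0.5, with the lowest p of a class, and the paralogs Csf2rb and Csf2rb2; of each pathway list the 3 genes of lowest p; genes beyond this were named after their values were seen. Marker signals are sums of 2 to the power of the log2 values. Alternatives were median centring, averaging all probe sets of a gene, specific probe sets first (no _x_at, _s_at or _a_at name), genes under the median level left out, an intensity trend, the replicate number as a block, and leaving out each pool. Some listed genes are not reported here.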

Additional observations from a re-analysis of the deposited data

Results flagged for a closer look

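Outside the comparison lay 4 probe sets annotated to a member and to a second gene. Of these, 3 had both deficient pools above both wild type pools, as did 17% of all genes. The probe set annotated to both Csf2rb and Csf2rb2 had 6.69 and 6.66 against 6.46 and 6.42 and differed by 0.23 (SE 0.14). The one annotated to Orc4 and Acvr2a had 5.03 and 5.37 against 4.39 and 4.73 and differed by 0.64 (SE 0.20). One of the pair annotated to Jak3 and Insl3 had 4.83 and 4.93 against 4.68 and 4.70 and differed by 0.19 (SE 0.14), and the brighter one differed by -0.04. Which gene each reports cannot be told apart.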

How the results depend on the processing

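No setting gave a gene with an adjusted limma p under 0.05. The labels do not say whether same-numbered pools of the groups belong together. Such pools deviated from their group means with r = -0.19 over genes, which does not settle the question. With the replicate block an unadjusted p under 0.05 was reached by 281 genes above 0 and 457 below, and by 4 members. A crossed replicate block, chosen after seeing the data, gave 518 and 1151 genes and 8 members. Without single pools the number at that level varied from fit to fit, for members and for all genes. With 1 pool left in a group, such counts are not given. The members' median difference was -0.055 with median centring, 0.031 with averaged probe sets, -0.050 without dim genes, and -0.029 to -0.026 without single pools.

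Without dim genes the class medians were -0.42 (gp130), 0.99 (common beta), -0.12 (common gamma) and -0.078 (JAK kinases). TGF-beta and BMP receptors had 0.039 with centring and -0.017 with averaged probe sets, JAK kinases -0.11 with averaged probe sets, and STAT factors -0.26 with specific probe sets first. Without single pools the medians ran from -0.11 to 0.31 (gp130), -0.081 to 0.28 (homodimeric), 0.41 to 0.84 (common beta), -0.15 to 0.16 (common gamma), -0.55 to 0.68 (interleukin-1), -0.29 to 0.047 (TNF), -0.19 to 0.15 (interferon and interleukin-10), -0.019 to 0.13 (TGF-beta and BMP), 0.041 to 0.22 (receptor tyrosine kinases), -0.25 to 0.047 (JAK) and -0.22 to -0.035 (STAT).

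Pathway genes at an unadjusted p under 0.05, without dim genes, numbered 1 (other receptors), 1 (ligands), 2 (negative regulators) and 0 (adaptors and Smads). With the replicate block there were 1 ligand, 2 negative regulators and 1 adaptor or Smad. Averaged probe sets left 1 ligand, and centring, specific probe sets first and the intensity trend each 2 adaptors or Smads. Without single pools the counts ran from 2 to 7 (other receptors), 1 to 4 (ligands), 4 to 7 (negative regulators), 4 to 9 (STAT response genes) and 0 to 2 (adaptors and Smads).

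Signs turned with centring for Il4ra (-0.048), Tgfbr3 (-0.035) and Csf1r (-0.048). With averaged probe sets they turned for Il4ra (-0.13), Ifnar2 (0.027), Ifngr2 (0.025), Il10rb (0.012), Tgfbr3 (-0.017), Bmpr1a (-0.055), Insr (0.043), Tyk2 (0.087), Stat2 (0.051) and Stat3 (0.055). With specific probe sets first they turned for Csf1r (-0.074), Smad1 (-0.022) and Smad4 (-0.046). In 27 members the sign was the same without any single pool. In 23 it was not: Il6ra ran from -0.11 to 0.31, Osmr -0.041 to 0.76, Epor -0.18 to 0.28, Csf3r -0.64 to 0.055, Ghr -0.072 to 0.29, Csf2ra -0.93 to 0.031, Il7r -0.17 to 0.94 and Il4ra -0.15 to 0.16. Il18r1 ran from -0.55 to 0.68, Ifnar2 -0.20 to 0.18, Ifngr1 -0.19 to 0.40, Ifngr2 -0.16 to 0.13, Tnfrsf1b -0.36 to 0.13, Tgfbr1 -0.13 to 0.36, Tgfbr3 -0.056 to 0.093 and Bmpr1a -0.32 to 0.50. Csf1r ran from -0.20 to 0.21, Tek -0.099 to 0.27, Jak3 -1.23 to 0.11, Stat2 -0.072 to 0.046, Stat3 -0.31 to 0.12, Stat5a -0.23 to 0.13 and Stat5b -0.34 to 0.022. The causes were not tested. With 1 pool left in a group, that pool is assumed to vary like the other group's.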

Other observations

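Pools of 1 group often differed from each other by as much as the groups did. The median absolute gap was 0.25 between the wild type pools and 0.18 between the deficient pools, beside a median absolute group difference of 0.20 over the 50 members. For 34 members at least 1 within-group gap was larger than the group difference, and for 16 both gaps were smaller. Wild type pools were more than 0.5 apart for 9 members, with pool 2 lower by 1.34 in Jak3 (difference -1.34), 1.22 in Il18r1 (-1.22) and 0.96 in Il1r1 (-0.96) and higher by 1.11 in Il7r. Deficient pools were that far apart for 5 members, with pool 2 higher by 0.97 in Csf2ra, 0.78 in Csf2rb2 and 0.53 in Il1r1, and lower in Il7r (-0.84) and Osmr (-0.80).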
